A study of Mus musculus with 42 samples.

Results

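DNA replication and S phase genes were described across microglia sorted by the proliferation marker Ki67 from mouse brain. The set had 58 members, chosen by their known function: origin licensing, the MCM helicase, helicase activation, clamp and clamp loader, polymerases, nucleotide supply, replication-coupled chromatin, G1/S control and fork protection. All 58 were found by gene name among the 19151 genes of the deposited table, and 56 reached a mean of 7 in at least 1 of the 12 groups. Orc1, a subunit of the origin recognition complex, had a highest group mean of 6.79, and Chaf1a, a subunit of the histone chaperone CAF-1, had one of 6.97, so both were left out of the tests. Of the 56 tested members, 18 were at or over 7 in all 12 groups and 38 in 1 to 11 groups, and a member in this second class passed only through the groups in which it was high.

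The 42 libraries came from male C57BL/6 mice that were either wild-type (WT) or carried the APP/PS1 transgenes, a model in which mutant human APP and presenilin 1 lead to amyloid plaques. Brains were taken at 4, 6 and 12 months, fixed CD11b+/CD45+ cells were stained for Ki67 protein, and up to 400 Ki67+ or Ki67- cells made up 1 library. Ki67+ and Ki67- groups held 5 and 5 libraries in WT and 4 and 4 in APP/PS1 at 4 months, 2 and 3 in WT and 2 and 2 in APP/PS1 at 6 months, and 4 and 3 in WT and 4 and 4 in APP/PS1 at 12 months. The APP/PS1 line came from The Jackson Laboratory and was crossed back to C57BL/6, the WT mice were littermates, and CD11b and CD45 also mark other myeloid cells. The cells were fixed and permeabilized before RNA was taken, in every group.

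Each cell copies its genome once per division in an ordered series of steps. In G1 the origin recognition complex with Cdc6 and Cdt1 loads the MCM helicase on origins, and geminin (Gmnn) blocks Cdt1 afterwards so that no origin is loaded again. Cyclin E with Cdk2, and the E2F factors that it helps to release, lead cells into S phase, when Cdc45 and the GINS complex turn the helicase on and polymerases copy both strands from newly made nucleotides. Ki67 is present in all active phases of the cycle and not only in S phase, and microglia are long-lived cells of which few divide at a given time.

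Values are given as deposited, on a log2-like scale that flattens at low levels, after the authors had removed 10 surrogate variables (patterns of unwanted variation estimated from the data). A difference is a difference of group means on this scale. Levels were not divided by transcript length, so they were not compared between genes, and they carry no record of sequencing depth. In a bulk sample, fewer cells that hold an RNA and less RNA per cell cannot be told apart.

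Some libraries and labels need naming first. The removal had taken 99.1% of the variation space among the 3 WT 12-month Ki67- libraries, whose members had a median SD of 0.0403, against 0.186 to 0.429 in the other 11 groups. It had also taken 59.9% in APP/PS1 6-month Ki67+, 59.1% in WT 12-month Ki67+, 51.7% in WT 4-month Ki67- and 48.1% in APP/PS1 12-month Ki67+ libraries. The remaining groups had lost 0.53% to 24.8%. Agreement among libraries of the groups named here is thus not a full measure of error. Replicates 1 and 2 of the WT 4-month Ki67- group differed by a median of 0.0215 per gene, and 99.7% of their direction of difference had been removed. These 2 libraries were kept apart, and leaving out either of them gave 13 members higher and 4 lower in the WT 4-month comparison, against 14 and 4 with both. RNA of the sorted protein's own gene, Mki67, ran from 6.73 to 9.37 in Ki67+ and from 6.96 to 8.84 in Ki67- libraries and did not pass the test over the 6 strata (difference 0.14 ± 0.18 SE, limma adjusted p = 0.506). It was higher in Ki67+ cells in APP/PS1 mice at 4 months (1.26 ± 0.39, limma adjusted p = 0.0222) and lower in those labelled Ki67+ in WT mice at 12 months (-1.09 ± 0.42, limma adjusted p = 0.0362), against the direction of the label.

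Astrocyte markers, and some markers of other cells, moved with the Ki67 label. All 10 of 10 astrocyte markers were higher in Ki67+ cells, with a mean level per library from 9.14 to 11.26 against 7.61 to 8.85. Of 13 microglia markers, 8 were lower and 1, Ptprc, higher, at 11.73 to 13.28 against 12.74 to 13.40. Of the remaining lists, 5 of 9 oligodendrocyte, 5 of 11 neuron, 4 of 9 endothelial and mural, 3 of 5 neuroblast, 1 of 7 peripheral immune and 1 of 2 oligodendrocyte precursor markers tested were higher, and 0, 2, 1, 0, 3 and 1 were lower. Of all 14910 genes, 34.5% were called higher and 29.7% lower in the same comparison. Counts such as 5 of 11 neuron and 4 of 9 endothelial and mural markers higher were not far from that share. The scale has no 0, and the part of these markers in the results below was not tested.

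To show control regions of members with opposite Ki67 differences, promoters were read from RefSeq (GRCm38.p6, 250 bases before and 50 after the start site). Of the 6 members with the lowest p in each direction, those that held an E2F word were printed. E2F words are the letters that E2F factors are known to bind, searched as TTTCCCGC, TTTCGCGC, TTTGCCGC and TTTGGCGC on both strands. Mcm8 (chr2:132815891-132816190, plus strand) was higher in Ki67+ cells, and Pold3 (chr7:100121453-100121752, minus strand), Cdt1 (chr8:122567765-122568064, plus strand) and Rfc3 (chr5:151651159-151651458, minus strand) were lower. Pold2, Orc5, Rrm1 and Rfc5 (higher) and Cdc45, Orc4 and Prim1 (lower) held no word, and Gmnn had no promoter entry. Other higher members with a word, such as Mcm3, Mcm6 and Cdk2, were not printed, so the printed windows do not show the share in either direction. Each window is printed 5′ to 3′ along the gene with the E2F words in capitals.
Mcm8: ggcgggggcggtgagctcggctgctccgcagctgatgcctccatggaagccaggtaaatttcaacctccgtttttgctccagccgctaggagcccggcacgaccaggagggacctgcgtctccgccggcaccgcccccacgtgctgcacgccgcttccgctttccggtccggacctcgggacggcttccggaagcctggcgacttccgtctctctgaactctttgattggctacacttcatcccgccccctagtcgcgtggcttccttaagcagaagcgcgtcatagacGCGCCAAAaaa
Pold3: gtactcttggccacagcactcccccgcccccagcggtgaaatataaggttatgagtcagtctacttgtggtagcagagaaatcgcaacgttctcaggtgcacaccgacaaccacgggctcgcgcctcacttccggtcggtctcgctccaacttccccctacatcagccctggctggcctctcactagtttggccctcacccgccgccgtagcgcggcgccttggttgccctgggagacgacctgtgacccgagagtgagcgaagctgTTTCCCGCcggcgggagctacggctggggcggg
Cdt1: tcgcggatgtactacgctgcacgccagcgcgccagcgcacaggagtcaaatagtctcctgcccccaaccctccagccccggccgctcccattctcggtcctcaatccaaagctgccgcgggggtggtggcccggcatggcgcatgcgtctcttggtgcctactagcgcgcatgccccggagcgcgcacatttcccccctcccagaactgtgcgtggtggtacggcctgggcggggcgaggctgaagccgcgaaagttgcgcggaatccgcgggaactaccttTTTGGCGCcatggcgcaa
Rfc3: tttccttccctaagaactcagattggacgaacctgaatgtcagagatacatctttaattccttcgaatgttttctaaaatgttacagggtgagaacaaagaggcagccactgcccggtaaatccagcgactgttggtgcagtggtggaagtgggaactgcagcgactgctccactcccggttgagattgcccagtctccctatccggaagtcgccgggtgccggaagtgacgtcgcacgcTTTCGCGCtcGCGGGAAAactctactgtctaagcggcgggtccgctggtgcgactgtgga
Mcm8, Pold3 and Cdt1 each held 1 word, after the start site, and Rfc3 held 2 that lay at and just before it. A RefSeq promoter was matched for 49 of the 58 members, and 21 of these (42.9%) held an E2F word, against 2.61% of 27025 gene symbols with a promoter. The share was 9 of 21 among members higher in Ki67+ cells, 5 of 10 among members lower and 6 of 16 among those that did not pass the test. The CCAAT box, bound by NF-Y, was found in 65.3% of member promoters against 41.1% of all, and TTTGAA, the core of the CHR element of many G2 and M phase genes, in 14.3% against 20.2%, both on either strand. E2F and CCAAT words share no whole match with each other, and a match describes letters only.

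Across the 6 genotype and age strata, 24 members were higher and 14 lower in Ki67+ than in Ki67- cells. Ribonucleotide reductase, geminin, 5 MCM genes and Fen1 were among those higher, while Pold3, Cdt1, Cdc45 and 3 of 4 GINS genes were among those lower. In percent, 42.9% of members were called higher and 25% lower, beside 34.5% and 29.7% of all 14910 genes tested, and 64.2% of all genes were called in either direction. The median difference of the members was 0.17, against 0.04 for all genes. Most genes tested therefore passed, and the members' counts were near that background. Gmnn, Mcm8, Mcm10 and Rrm2 reached a mean of 7 in Ki67+ groups only, so they entered the test through the state in which they were higher, and Brca1 and Cdc6 did so through the APP/PS1 4-month Ki67+ group alone. Of the 24 members higher, 20 were called under each of 49 other settings, and of the 14 lower, 7 were (Orc4, Cdt1, Cdc45, Gins4, Rfc3, Pold3 and Ccne2).

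**Figure D1:**
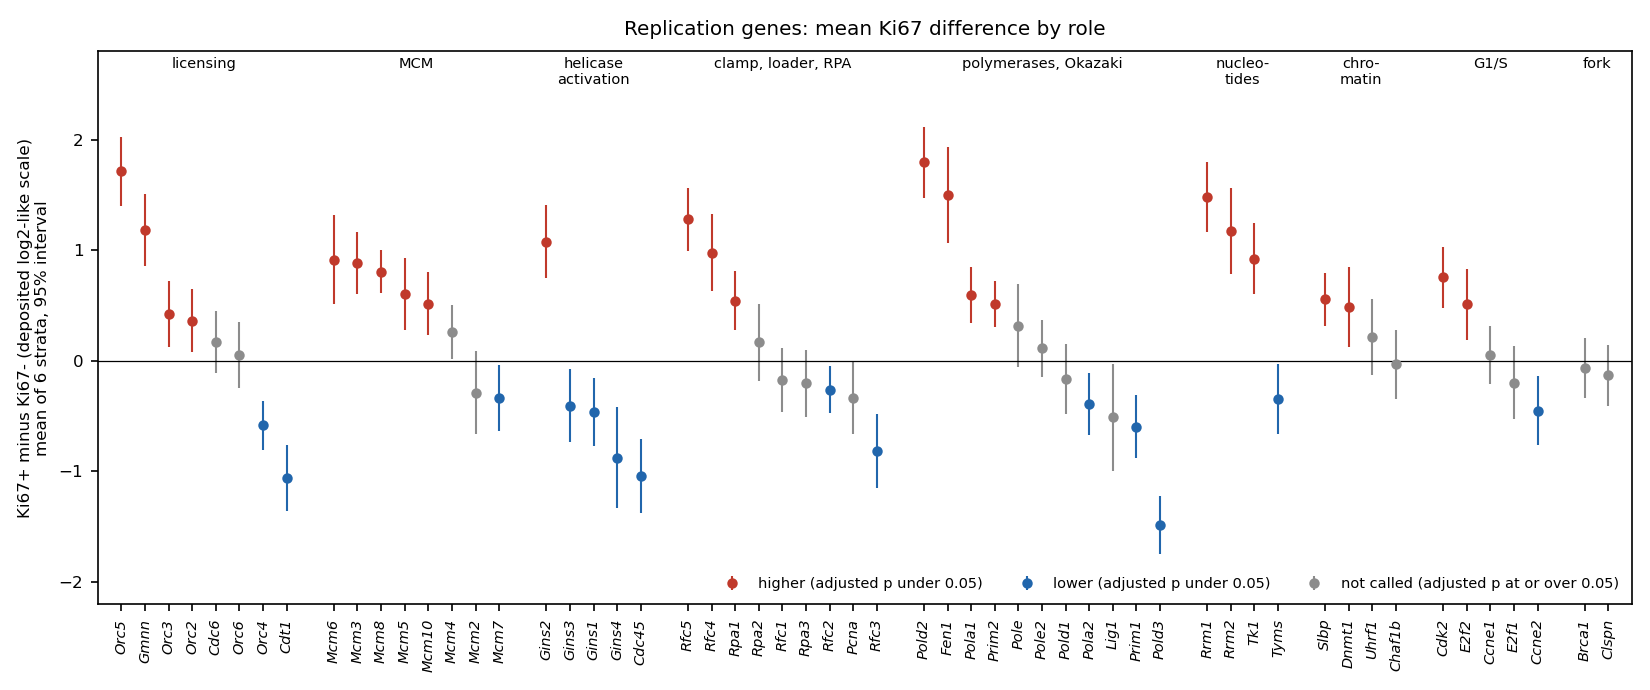
Difference between Ki67+ and Ki67- cells, as the mean over the 6 genotype and age strata, for the 56 tested members ordered by role. The y axis is the deposited log2-like scale, points are differences and bars 95% intervals. The 24 members in red were higher, the 14 in blue lower, and the 18 in grey did not pass the limma test, and 7 of the 9 roles held members called in both directions.

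**Figure D2:**
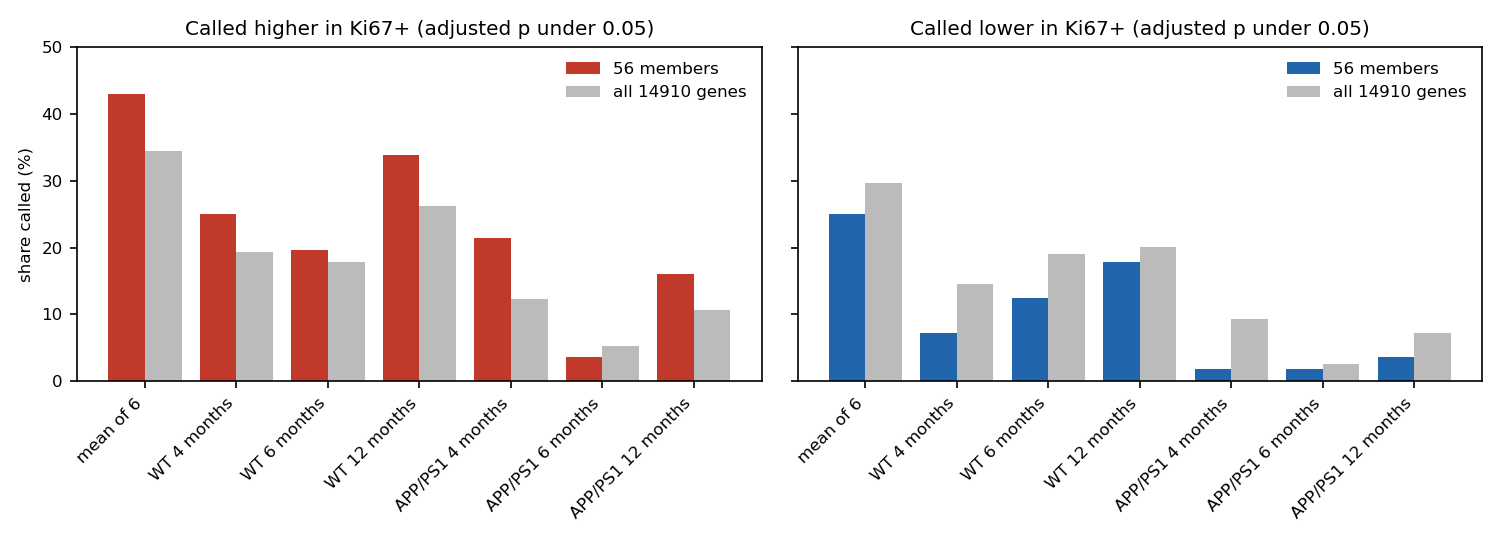
Share of the 56 members and of all 14910 genes called higher (left) or lower (right) in Ki67+ cells, in percent on axes that start at 0, for the mean of the 6 strata and for each stratum. The members' share called higher was 42.9% against 34.5% over the mean of the strata, and their share called lower was under that of all genes in each of the 7 comparisons.

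Among 8 tested origin licensing genes, Orc2, Orc3, Orc5 and Gmnn were higher and Orc4 and Cdt1 lower. An exon of Orc2 shares 686 bases with Nif3l1 on the opposite strand. Orc5, a subunit of the origin recognition complex, ran from 8.22 to 10.22 (median 9.27) in the 21 Ki67+ libraries and from 6.75 to 8.50 (median 7.34) in the 21 Ki67- libraries. Few libraries lay in the overlap of the ranges. Its difference was 1.71 ± 0.15 SE (95% interval 1.40 to 2.03, limma adjusted p = 3.85e-10), and an exon of Orc5 shares 90 bases with the pseudogene Gm15421. Orc4, another subunit of the same complex, ran from 7.62 to 8.90 (median 8.34) in Ki67+ and from 7.86 to 9.60 (median 8.88) in Ki67- libraries. These ranges overlapped widely, and the difference was -0.58 ± 0.11 (limma adjusted p = 4.02e-05). Its exons overlap 446 bases of Acvr2a on the opposite strand, and with this unstranded kit such reads cannot be told apart. Of the 2 licensing members that did not pass, Cdc6, which helps load MCM, had the lower p (0.17 ± 0.14, limma adjusted p = 0.287).

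Cdt1 and its inhibitor geminin moved in opposite directions. Gmnn ran from 7.18 to 8.54 (median 7.81) in Ki67+ and from 5.70 to 7.47 (median 6.62) in Ki67- libraries, a difference of 1.18 ± 0.16 (limma adjusted p = 3.25e-07). Cdt1, the MCM loading factor, ran from 6.04 to 7.76 (median 7.05) in Ki67+ and from 7.05 to 8.79 (median 8.04) in Ki67- libraries. Most Ki67+ libraries lay below most Ki67- libraries, and the difference was -1.06 ± 0.15 (limma adjusted p = 5.77e-07). Gmnn was called higher in 5 of the 6 strata and Cdt1 lower in 3, and how many of all genes were called as often was not counted. Cdt1 protein is known to be destroyed in S phase, which RNA does not show.

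Of the 8 MCM genes, Mcm3, Mcm5, Mcm6, Mcm8 and Mcm10 were higher and Mcm7 lower, with differences from -0.33 to 0.92. Mcm8, which acts in repair of broken DNA rather than in the main helicase, ran from 6.21 to 8.13 (median 7.38) in Ki67+ and from 6.15 to 6.85 (median 6.54) in Ki67- libraries. Its lowest Ki67+ values were the 2 APP/PS1 6-month libraries, at 6.21 and 6.23, and its difference was 0.81 ± 0.10 (limma adjusted p = 5.01e-08). Mcm6, a subunit of the helicase ring, ran from 6.85 to 9.36 (median 8.32) in Ki67+ and from 6.20 to 8.36 (median 7.32) in Ki67- libraries, with much overlap and a difference of 0.92 ± 0.19 (limma adjusted p = 0.000201). Mcm2, another subunit of the same ring, ran from 6.39 to 8.63 (median 7.21) in Ki67+ and from 6.74 to 8.46 (median 7.95) in Ki67- libraries. It did not pass the test (-0.29 ± 0.18, 95% interval -0.66 to 0.09, limma adjusted p = 0.174). Among the subunits of the helicase ring, Mcm3, Mcm5 and Mcm6 were called higher and Mcm7 lower. Mcm2 and Mcm4 (0.26 ± 0.12, limma adjusted p = 0.0542) were past neither side of the threshold. The Mcm7 call held in only 26 of the 49 other settings, so a split of direction within the ring is not firm. An exon of Mcm7 shares 247 bases with Ap4m1 on the opposite strand, and such reads cannot be told apart.

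In helicase activation 4 of 5 members were lower, the largest share of any role, beside 29.7% of all genes. The roles are small and were ranked after the calls were seen. Gins1 and Gins3 were called lower in 48 and 46 of the 49 other settings, and Gins3 in no single stratum. Cdc45, which joins the MCM ring to make it active, ran from 4.36 to 8.41 (median 6.38) in Ki67+ and from 6.69 to 8.41 (median 7.10) in Ki67- libraries. Its Ki67+ values were far more spread than its Ki67- values, and the difference was -1.04 ± 0.16 (limma adjusted p = 3.94e-06). Gins1, Gins3 and Gins4, subunits of the 4-part GINS complex, differed by -0.46, -0.40 and -0.88. Gins2, of the same complex, ran from 7.88 to 9.22 (median 8.70) in Ki67+ and from 5.79 to 9.31 (median 7.52) in Ki67- libraries and was higher (1.08 ± 0.16, limma adjusted p = 2.23e-06). An exon of Gins2 shares 2758 bases with Gse1 on the opposite strand, and one of Cdc45 shares 164 bases with Ufd1, so reads from these stretches cannot be told apart.

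The clamp loader split as well, with Rfc4 and Rfc5 higher, Rfc2 and Rfc3 lower, and Rfc1 not called (-0.18 ± 0.14, limma adjusted p = 0.282). Rfc5 ran from 7.67 to 9.68 (median 8.52) in Ki67+ and from 6.61 to 8.04 (median 7.41) in Ki67- libraries, with little overlap and a difference of 1.28 ± 0.14 (limma adjusted p = 9.74e-09). Rfc3 ran from 5.88 to 8.67 (median 7.67) in Ki67+ and from 7.39 to 9.35 (median 8.18) in Ki67- libraries, with wide overlap and a difference of -0.81 ± 0.16 (limma adjusted p = 0.00011). Both are small subunits of the complex that loads the sliding clamp. On the opposite strand, exons of Rfc2 share 952 bases with Lat2, those of Rfc5 share 499 with Wsb2 and those of Rfc4 share 186 with Eif4a2. Reads from these stretches cannot be told apart. The clamp itself, Pcna, ran from 8.62 to 10.38 (median 9.50) in Ki67+ and from 8.89 to 10.65 (median 9.88) in Ki67- libraries. The clamp's ranges were almost the same, and the difference did not pass the test (-0.34 ± 0.16, 95% interval -0.66 to -0.01, limma adjusted p = 0.0669). It passed without WT Ki67+ replicate 4 at 4 months, 2 at 6 months or 4 at 12 months, WT Ki67- replicate 5 at 4 months or 3 at 6 months, or APP/PS1 Ki67- replicate 2 at 4 months, 1 at 6 months or 1 at 12 months (limma adjusted p = 0.0272 to 0.0495). Pcna has the processed pseudogenes Pcna-ps1 and Pcna-ps2, whose reads could be split from it. Of the RPA subunits, which cover single-stranded DNA, Rpa1 was higher (0.55 ± 0.13, limma adjusted p = 0.000674), and Rpa2 and Rpa3 differed by 0.17 and -0.20 without passing.

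Polymerase delta held the members with the lowest p in each direction. Pold2, its second subunit, ran from 7.36 to 10.66 (median 8.38) in Ki67+ and from 6.18 to 8.02 (median 7.14) in Ki67- libraries. Its difference was 1.79 ± 0.16 (95% interval 1.47 to 2.11, limma adjusted p = 2.14e-10). Pold3, its accessory subunit, ran from 6.59 to 8.05 (median 7.32) in Ki67+ and from 8.30 to 9.80 (median 8.85) in Ki67- libraries. No Ki67+ library of Pold3 reached the lowest Ki67- library, and the difference was -1.48 ± 0.13 (95% interval -1.74 to -1.22, limma adjusted p = 1.83e-10). Pold1, the catalytic subunit, differed by -0.16 ± 0.15 and did not pass (limma adjusted p = 0.365).

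Primase and the maturation enzymes were mixed. Prim1, the catalytic primase subunit, ran from 5.36 to 7.93 (median 7.17) in Ki67+ and from 6.76 to 8.23 (median 7.70) in Ki67- libraries. The ranges overlapped, and the difference was -0.60 ± 0.14 (limma adjusted p = 0.000489), which came to -0.30 and did not pass without the 6-month libraries (limma adjusted p = 0.0511). Prim2, the partner of Prim1, was higher (0.52 ± 0.10, limma adjusted p = 8.27e-05), as was Pola1 (0.60 ± 0.12, limma adjusted p = 0.000168), while Pola2 was lower (-0.39 ± 0.14, limma adjusted p = 0.0153). Fen1, the nuclease that trims Okazaki fragments, ran from 6.82 to 9.36 (median 8.30) in Ki67+ and from 5.60 to 8.99 (median 6.64) in Ki67- libraries and was higher (1.50 ± 0.21, limma adjusted p = 8.61e-07). Lig1, which seals the fragments, differed by -0.51 ± 0.24 and did not pass (limma adjusted p = 0.061). An exon of Fen1 shares 1909 bases with the antisense gene Gm10143.

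Nucleotide supply had the highest median difference of the small roles, at 1.05, a ranking made after the values were seen. Rrm1, the large subunit of ribonucleotide reductase, ran from 8.26 to 9.83 (median 9.10) in Ki67+ and from 7.01 to 8.64 (median 7.78) in Ki67- libraries. The ranges overlapped by a few libraries only, and the difference was 1.48 ± 0.16 (95% interval 1.16 to 1.80, limma adjusted p = 5.96e-09). Rrm2, the small subunit made in S phase, ran from 6.43 to 8.87 (median 7.60) in Ki67+ and from 6.02 to 7.08 (median 6.43) in Ki67- libraries, with a difference of 1.17 ± 0.19 (limma adjusted p = 6.33e-06). Tk1, the S phase thymidine kinase, ran from 7.94 to 9.26 (median 8.39) against 6.52 to 8.72 (median 7.77), a difference of 0.92 ± 0.16 (limma adjusted p = 1.27e-05). Tyms, which makes thymidylate by the other route, lay lower in Ki67+ cells, at 6.49 to 9.26 (median 7.98) against 7.55 to 9.43 (median 8.48). The Tyms difference of -0.35 ± 0.15 was at the threshold (limma adjusted p = 0.0492) and did not pass in 24 of the 42 fits without 1 library, with limma adjusted p from 0.0504 up to 0.115 without replicate 1 of the WT 6-month Ki67+ group. Tyms has a processed pseudogene, Tyms-ps.

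In G1/S control, the kinase Cdk2 (0.75 ± 0.14, limma adjusted p = 2.91e-05) and E2f2 (0.51 ± 0.16, limma adjusted p = 0.00594) were higher. Ccne1, a cyclin E that drives entry into S phase, ran from 6.15 to 7.88 (median 6.53) in Ki67+ and from 6.36 to 7.35 (median 6.58) in Ki67- libraries. Its difference of 0.05 ± 0.13 was smaller than the spread (95% interval -0.21 to 0.31, limma adjusted p = 0.731), and its sign turned when library medians were subtracted (-0.062) and without replicate 1 of the WT 6-month Ki67+ group (-0.047). Ccne2, the other cyclin E, ran from 6.04 to 7.98 (median 6.80) against 6.42 to 8.14 (median 7.29) and was lower (-0.45 ± 0.15, limma adjusted p = 0.0109). An exon of Ccne2 shares 474 bases with Ints8 on the opposite strand, and such reads cannot be told apart. E2f1, an activator of many S phase genes, ran from 5.79 to 7.77 (median 7.02) against 6.54 to 8.22 (median 6.93). E2f1 did not pass (-0.20 ± 0.16, limma adjusted p = 0.291), and its sign turned without the 6-month libraries (0.098).

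Of the chromatin members, Dnmt1, which copies DNA methylation after the fork, and Slbp, which binds histone mRNA in S phase, were higher (0.49 ± 0.18, limma adjusted p = 0.0175, and 0.56 ± 0.12, limma adjusted p = 0.00018). An exon of Slbp shares 380 bases with Gm10459 on the opposite strand. Uhrf1 (0.21) and Chaf1b (-0.03) did not pass. Both fork protection genes lay near 0, Clspn at -0.13 ± 0.13 (limma adjusted p = 0.399) and Brca1 at -0.06 ± 0.13 (limma adjusted p = 0.686).

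Other cycle genes gave the setting. Of 46 other replication and S phase factors tested, 18 were higher and 12 lower (median 0.13). Cdc7, the kinase that fires origins, was higher by 1.85 ± 0.12 (limma adjusted p = 8.00e-13), and Timeless, of the fork protection complex, was lower by -0.91 ± 0.11 (limma adjusted p = 8.87e-08). Of 27 cyclin D, RB and E2F regulators, 11 were higher, among them E2f8 (1.03 ± 0.13, limma adjusted p = 8.03e-08), and 8 lower, among them Ccnd3 (-1.29 ± 0.15, limma adjusted p = 4.06e-08). Of 26 G2 and mitosis genes, 20 were higher and 0 lower, with a median difference of 0.80, and Aurkb, the kinase of the chromosomal passenger complex, was higher by 1.85 ± 0.17 (limma adjusted p = 8.49e-10). Of all genes tested, 34.5% were called higher and 29.7% lower in this comparison. The counts of the other replication factors and of the regulators were near that background. The difference between the members and these lists was not tested.

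Within the strata, the counts of members differed between genotypes and ages, and each fit used its own Ki67+ and Ki67- libraries with a spread shared over all groups. Members listed by library below, also by genotype and age, were picked mainly for the lowest p in their comparison. That their groups often do not overlap follows from this choice and is no further support. The share of all genes without overlap was not counted. Rrm1 was called higher in 6 of 6 strata, Orc5, Gmnn, Mcm8 and Pold2 in 5, and Rfc5 and Rrm2 in 4, while Pold3 was called lower in 5. In single strata 5.21% to 26.2% of all genes were called higher and 2.6% to 20.1% lower. How many of all genes were called in 4, 5 or 6 strata was not counted, so these counts have no background. Gmnn, Mcm8 and Rrm2 entered the test through Ki67+ groups only. Positive differences in all 6 strata were found for 18 members, 32.1% of those tested, against 21.5% of all genes, and in none of the 6 for 8 members, 14.3%, against 17.5% of all genes.

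**Figure D3:**
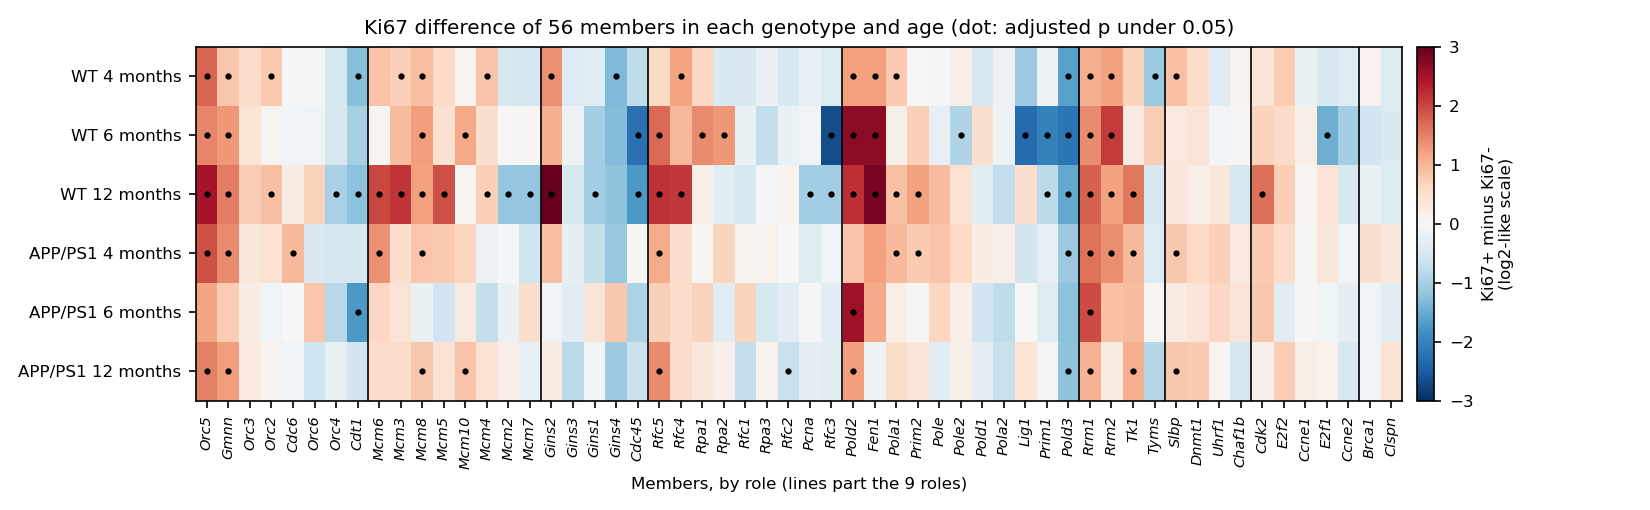
Difference between Ki67+ and Ki67- cells for the 56 tested members (columns, by role) in each of the 6 strata (rows), coloured from -3 to 3 on the deposited log2-like scale. A dot marks a limma adjusted p under 0.05: Rrm1 had 6 dots, Orc5, Gmnn, Mcm8, Pold2 and Pold3 had 5 each, and the APP/PS1 6-month row had 3 in all. How many of all genes were called in as many strata was not counted.

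In WT mice at 4 months, 14 members were higher and 4 lower (19.3% and 14.5% of all genes, 33.8% in either direction), and the lower ones were Cdt1, Gins4, Pold3 and Tyms. Orc5 was at 9.76, 9.34, 9.53, 9.39 and 9.25 in the Ki67+ libraries and at 7.71, 7.73, 8.14, 8.06 and 6.92 in the Ki67- libraries. Mcm8 was at 7.19, 7.87, 7.46, 7.44 and 7.89 against 6.68, 6.69, 6.70, 6.40 and 6.85. For Gins2 the values were 8.70, 8.26, 8.98, 7.88 and 8.45 against 7.00, 7.02, 7.39, 7.30 and 6.69. All 5 Ki67+ libraries lay above all 5 Ki67- libraries for each of these genes, with differences of 1.74 ± 0.30 for Orc5, 0.90 ± 0.19 for Mcm8 and 1.37 ± 0.32 for Gins2 (limma adjusted p = 7.64e-05, 0.000525 and 0.00148). Pold3 was at 7.74, 7.11, 7.05, 7.21 and 7.30 in Ki67+ and at 8.83, 8.85, 9.08, 9.0 and 8.84 in Ki67- libraries. Cdt1 was at 7.05, 6.61, 7.19, 6.97 and 6.87 against 8.20, 8.15, 8.35, 7.85 and 8.57. Tyms was at 6.49, 7.62, 7.51, 7.89 and 8.17 against 8.83, 8.85, 8.65, 8.48 and 8.38. The groups did not overlap for any of these either, and the differences were -1.64 ± 0.25 for Pold3, -1.29 ± 0.28 for Cdt1 and -1.10 ± 0.30 for Tyms (limma adjusted p = 1.67e-05, 0.00101 and 0.00528). Astrocyte markers were higher here by a median of 2.79, with 10 of 10 called.

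In WT mice at 6 months, 11 members were higher and 7 lower (17.8% and 19% of all genes, 36.8% in either direction), from 2 Ki67+ and 3 Ki67- libraries. Pold2 was at 9.83 and 10.66 in the Ki67+ libraries, its 2 highest values of all 42, and at 7.27, 7.41 and 8.02 in the Ki67- libraries. Fen1 was at 9.12 and 9.36 against 6.54, 5.74 and 7.42, and Mcm8 at 7.29 and 8.13 against 6.54, 6.15 and 6.65. The differences were 2.68 ± 0.44 for Pold2, 2.67 ± 0.59 for Fen1 and 1.27 ± 0.27 for Mcm8 (limma adjusted p = 3.91e-05, 0.000949 and 0.000625), and Mcm8 fell to 0.84 without Ki67+ replicate 2 (limma adjusted p = 0.0438). Rfc3 was at 6.68 and 5.88 in Ki67+ against 9.02, 9.35 and 8.47 in Ki67- libraries. Pold3 was at 6.59 and 7.88 against 9.33, 9.64 and 9.29, and Prim1 at 6.26 and 5.36 against 7.70, 7.92 and 7.86. No library of one state crossed the other for these genes, with differences of -2.67 ± 0.46 for Rfc3, -2.18 ± 0.36 for Pold3 and -2.02 ± 0.38 for Prim1 (limma adjusted p = 7.32e-05, 4.10e-05 and 0.000211). Without Ki67+ replicate 1, 6 members in place of 11 were higher. Among the mitosis genes, Ccnb2, Birc5, Aurkb, Bub1b, Cenpe, Cdc20 and Tpx2 were higher and Top2a, Ube2c and Foxm1 lower. In the same 2 Ki67+ libraries 10 of 13 microglia markers were lower, at a mean level of 11.73 and 11.78 against 12.94 to 13.40 in the Ki67- libraries, and 4 of 9 oligodendrocyte markers were higher, at 10.95 and 11.50 against 8.96 to 11.10. Their part in these differences was not tested.

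In WT mice at 12 months, 19 members were higher and 10 lower (26.2% and 20.1% of all genes, 46.3% in either direction), the most of any stratum. Gins2 was at 8.84, 9.01, 8.84 and 8.53 in the libraries labelled Ki67+ and at 5.79, 5.82 and 5.84 in those labelled Ki67-. Orc5 was at 9.73, 9.73, 10.22 and 9.48 against 7.30, 7.30 and 7.34, and Rfc5 at 8.85, 8.77, 9.11 and 8.78 against 6.70, 6.71 and 6.76. The groups were far apart for each, by 2.99 ± 0.38 for Gins2, 2.48 ± 0.36 for Orc5 and 2.16 ± 0.32 for Rfc5 (limma adjusted p = 9.09e-07, 5.11e-06 and 7.52e-06). Pold3 was at 6.86, 7.01, 6.59 and 7.08 against 8.36, 8.42 and 8.50. Cdc45 was at 5.34, 5.22, 5.47 and 5.52 against 7.10, 7.11 and 7.12, and Orc4 at 8.34, 8.45, 7.99 and 8.56 against 9.31, 9.32 and 9.32. Again no value crossed, with differences of -1.54 ± 0.30 for Pold3, -1.72 ± 0.38 for Cdc45 and -0.98 ± 0.25 for Orc4 (limma adjusted p = 0.000174, 0.00068 and 0.00262). Pcna and Mcm2, which passed in no other stratum, were lower at -1.01 ± 0.37 and -1.15 ± 0.43 (limma adjusted p = 0.0284 and 0.0301), and neither was called in the test of genotype against Ki67 state at this age. Leaving out replicate 1, 2 or 3 of the Ki67- group left 6 lower members in place of 10. These Ki67- libraries are those with almost no spread left after the removal, so their agreement was no measure of error. Of the 26 mitosis genes, a list that holds Mki67, 17 were higher in the libraries labelled Ki67+ here, and the 2 lower were Mki67 and Kif11. Astrocyte markers were higher here too, among them Slc1a2 (4.84 ± 0.45) and Gfap (4.02 ± 0.40), while Sox9 did not pass (0.36 ± 0.24, limma adjusted p = 0.211). Their part in these differences was not tested here.

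In APP/PS1 mice at 4 months, 12 members were higher and only Pold3 lower (12.3% and 9.24% of all genes, 21.5% in either direction). Orc5 was at 10.03, 9.11, 9.20 and 9.27 in Ki67+ and at 7.30, 7.09, 7.63 and 7.98 in Ki67- libraries. Rrm1 was at 9.21, 9.10, 9.32 and 8.75 against 7.01, 7.14, 7.18 and 8.58, and Gmnn at 7.62, 7.93, 8.54 and 8.09 against 6.24, 6.90, 5.98 and 7.39. The states did not overlap, with differences of 1.90 ± 0.33 for Orc5, 1.62 ± 0.34 for Rrm1 and 1.42 ± 0.34 for Gmnn (limma adjusted p = 0.000196, 0.00117 and 0.00406). Pold3 was at 7.76, 7.30, 7.84 and 7.32 against 8.60, 8.79, 8.95 and 8.30, lower by -1.10 ± 0.28 (limma adjusted p = 0.00571). Rrm2 was higher as well (1.41 ± 0.41, limma adjusted p = 0.0158), and the lower count was 2 in place of 1 without Ki67+ replicate 1, 2 or 3 or Ki67- replicate 1. Here 20 of 26 mitosis genes and 10 of 10 astrocyte markers were higher.

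In APP/PS1 mice at 6 months, with 2 libraries of each state, Pold2 and Rrm1 were higher and Cdt1 lower (5.21% and 2.6% of all genes, 7.81% in either direction). With so few libraries, a lack of overlap between the states says little. Pold2 was at 9.20 and 9.37 in Ki67+ and at 7.32 and 6.18 in Ki67- libraries (2.53 ± 0.48, limma adjusted p = 0.00122). Rrm1 was at 9.78 and 9.12 against 7.45 and 7.52 (1.96 ± 0.48, limma adjusted p = 0.00986). Cdt1 was at 6.68 and 6.58 against 8.79 and 7.93 (-1.73 ± 0.45, limma adjusted p = 0.0158). All 3 were clear of overlap, but Rrm1 did not pass without replicate 1 of the Ki67+ or of the Ki67- group (limma adjusted p = 0.107 and 0.057). Cdt1 did not pass without Ki67+ replicate 1 or 2 or Ki67- replicate 1 (limma adjusted p = 0.0611, 0.108 and 0.17). Mcm8, called higher in the 5 other strata, had Ki67+ values of 6.21 and 6.23 beside Ki67- values of 6.20 and 6.63 and did not pass (-0.19 ± 0.29, 95% interval -0.79 to 0.41, limma adjusted p = 0.753). The removal had taken 59.9% of the direction of difference between these 2 Ki67+ libraries. Without Ki67- replicate 2, 2 members in place of 1 were lower. Among the mitosis genes only Ccnb2 was called, as higher (1.62 ± 0.48, limma adjusted p = 0.0346). All 9 of 9 oligodendrocyte markers were higher in these Ki67+ libraries, at a mean level of 11.65 and 12.60 against 8.54 and 8.59, and 7 of 10 astrocyte markers were, and their part in these differences was not tested.

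In APP/PS1 mice at 12 months, 9 members were higher and 2 lower (10.6% and 7.24% of all genes, 17.8% in either direction). Rfc5 was at 8.52, 9.11, 8.01 and 8.51 in Ki67+ and at 7.14, 6.85, 7.90 and 6.61 in Ki67- libraries. Orc5 was at 8.80, 8.70, 8.94 and 8.22 against 7.19, 6.87, 6.86 and 7.70, and Mcm8 at 7.19, 6.96, 7.33 and 7.19 against 6.29, 6.35, 6.49 and 6.35. The states did not overlap, at 1.41 ± 0.30 for Rfc5, 1.51 ± 0.33 for Orc5 and 0.80 ± 0.21 for Mcm8 (limma adjusted p = 0.00176, 0.00252 and 0.0088). Pold3 was at 8.03, 7.89, 8.05 and 7.88 against 8.59, 9.32, 9.10 and 9.64, lower by -1.20 ± 0.28 (limma adjusted p = 0.00375). Rfc2 was at 9.20, 9.10, 9.24 and 8.87 against 9.76, 9.68, 9.74 and 9.93, lower by -0.68 ± 0.23 (limma adjusted p = 0.0394). Rfc2 did not pass without Ki67+ replicate 1, 2 or 4 or Ki67- replicate 1, 3 or 4 (limma adjusted p = 0.0519 to 0.0916), and 5 members in place of 9 were higher without replicate 1 of either state. Only 1 member was lower without Ki67+ replicate 1, 2 or 4 or Ki67- replicate 4. Each of the astrocyte markers was called higher in these Ki67+ libraries, among them Slc1a2 (5.78 ± 0.42), Sparcl1 (3.79 ± 0.25) and Gfap (3.51 ± 0.37). Their part in these differences was not tested for the members.

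**Figure D4:**
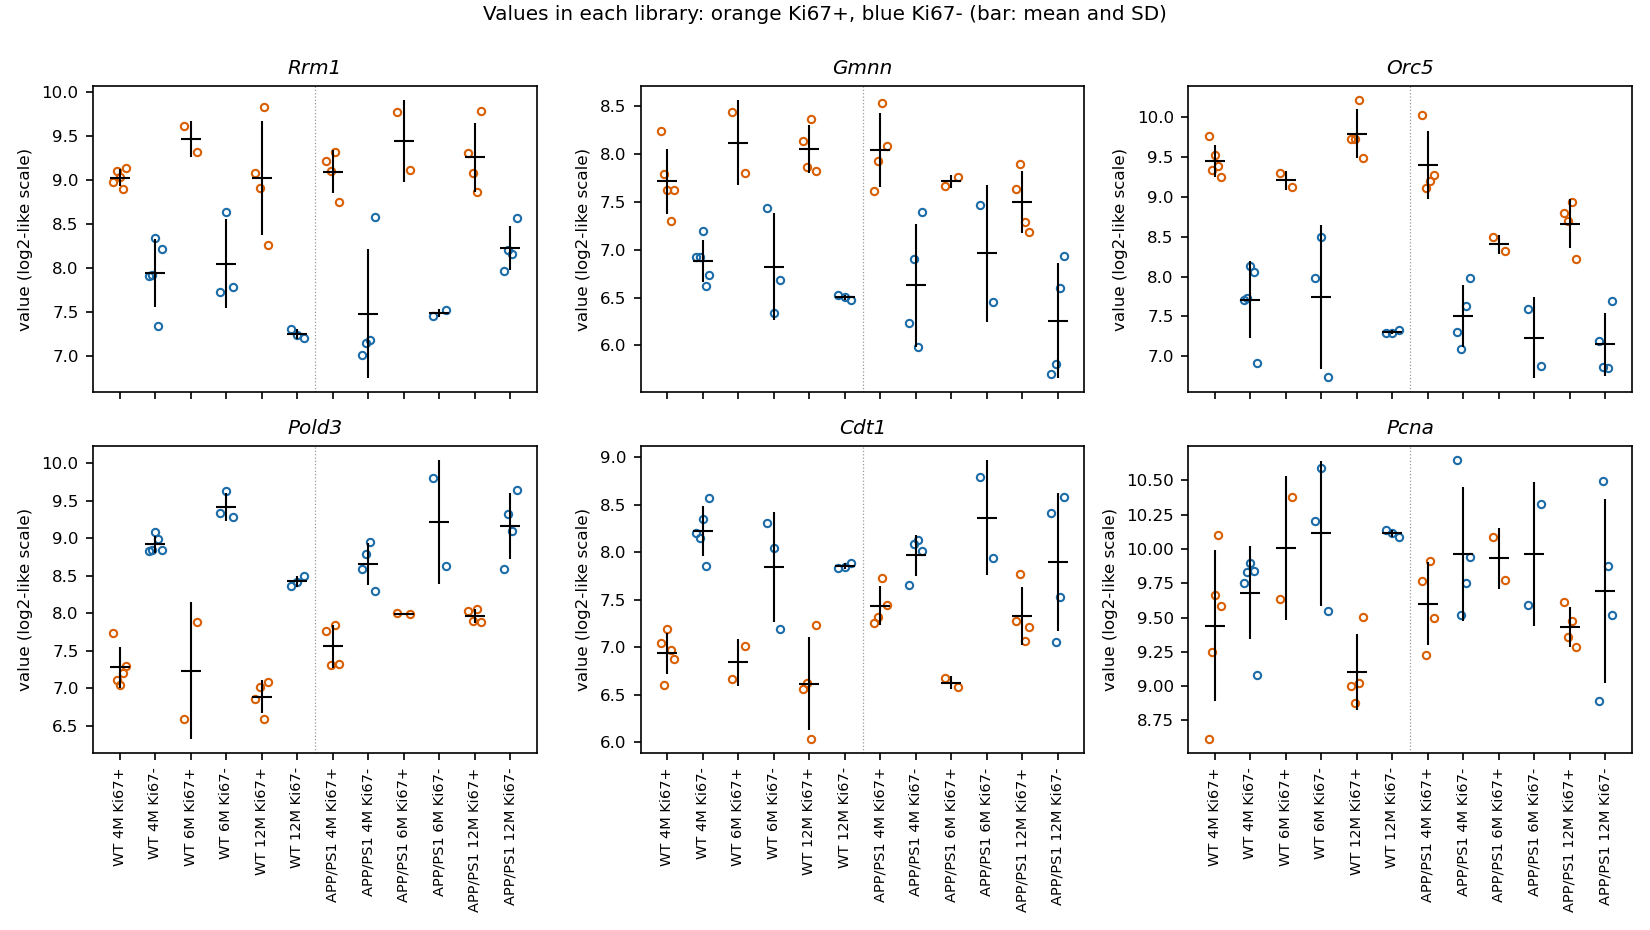
Value of Rrm1, Gmnn, Orc5, Pold3, Cdt1 and Pcna in each of the 42 libraries, by group on the x axis and on the deposited log2-like scale on the y axis, whose range differs between panels and does not start at 0. Circles are libraries (orange Ki67+, blue Ki67-), horizontal marks are means and bars SDs. Pold3 stayed between 6.59 and 8.05 in Ki67+ and between 8.30 and 9.80 in Ki67- libraries, while the 2 states of Pcna overlapped in most groups.

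Whether APP/PS1 and WT cells of the same state and age differed was tested next, and these comparisons share their libraries with the Ki67 comparisons. At 4 months 0 members were called in either state by limma (0.0268% of all genes in Ki67+ and 0% in Ki67- cells), with 5 and 3 members at an unadjusted p under 0.05. At 6 months 0 members were called in Ki67- cells (0.0604% of all genes, 0.0469% higher and 0.0134% lower), with 2 at an unadjusted p under 0.05.

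In Ki67+ cells at 6 months, 5 members were called, 3 higher and 2 lower in APP/PS1 (6.95% and 2.92% of all genes, 9.87% in either direction), from 2 libraries a group. Cdc45 was at 7.80 and 6.38 in APP/PS1 and at 5.04 and 4.36 in WT, the 2 lowest values of this gene in the table. Rfc3 was at 8.35 and 7.67 against 6.68 and 5.88, and Prim1 at 7.03 and 7.29 against 6.26 and 5.36. The differences were 2.39 ± 0.50 for Cdc45, 1.74 ± 0.50 for Rfc3 and 1.36 ± 0.42 for Prim1 (limma adjusted p = 0.00275, 0.0269 and 0.0393). Mcm8 was at 6.21 and 6.23 in APP/PS1 against 7.29 and 8.13 in WT (-1.48 ± 0.29, limma adjusted p = 0.00163), and Rfc5 at 7.75 and 7.67 against 8.73 and 9.68 (-1.50 ± 0.42, limma adjusted p = 0.023). None of the 5 passed without WT replicate 2, with limma adjusted p of 0.0514 for Cdc45, 0.238 for Rfc3, 0.343 for Prim1, 0.0601 for Mcm8 and 0.274 for Rfc5, and 1 passed without APP/PS1 replicate 1 and 3 without APP/PS1 replicate 2. Microglia markers were higher in APP/PS1 in this comparison for 10 of 13, at a mean level of 13.10 and 13.27 against 11.73 and 11.78.

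In Ki67+ cells at 12 months, Pold3 was higher and Rrm2, Orc5 and Rfc4 lower in APP/PS1 (4.43% and 5.34% of all genes, 9.77% in either direction). Pold3 was at 8.03, 7.89, 8.05 and 7.88 in APP/PS1 and at 6.86, 7.01, 6.59 and 7.08 in WT, higher by 1.08 ± 0.28 (limma adjusted p = 0.0151) and called without each library in turn. The removal had taken 59.1% of the variation space among the WT and 48.1% among the APP/PS1 libraries here. For WT replicates 1 and 2 it had taken 94.1% of their direction of difference. Agreement within these groups, and fits without 1 library, are therefore weak measures of error. Rrm2 was at 6.43, 6.43, 7.33 and 6.47 against 8.15, 8.42, 8.17 and 7.60, and its difference was -1.42 ± 0.41 (limma adjusted p = 0.0287). Orc5 was at 8.80, 8.70, 8.94 and 8.22 against 9.73, 9.73, 10.22 and 9.48 (-1.12 ± 0.33, limma adjusted p = 0.0319). None of these crossed between genotypes, and Rfc4 was also lower (-1.16 ± 0.37, limma adjusted p = 0.043), though not with all genes tested and no filter on low values (limma adjusted p = 0.0542). Rrm2 did not pass without replicate 1, 2 or 3 of WT or 1, 2 or 4 of APP/PS1 (limma adjusted p = 0.0586 to 0.0699), Rfc4 without the same libraries (0.0592 to 0.144) and Orc5 without replicate 1, 2 or 3 of WT or 2 or 4 of APP/PS1 (0.0539 to 0.0933). The 4 calls came down to 1 without WT replicate 1, 2 or 3 or APP/PS1 replicate 2 or 4, and to 2 without APP/PS1 replicate 1. Over the strata, Orc5 and Rrm2 were called higher in Ki67+ than in Ki67- cells in 5 and 4 of 6, counts not set against all genes. Orc5 was called higher in Ki67+ cells in APP/PS1 at 12 months. The Rrm2 values of these APP/PS1 Ki67+ libraries, apart from 7.33, lay within its range over all Ki67- libraries (6.02 to 7.08).

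In Ki67- cells at 12 months, Gins2, Mcm3, Fen1, Mcm5 and Mcm6 were higher and Orc4, Dnmt1 and Slbp lower in APP/PS1 (8.71% and 7.72% of all genes, 16.4% in either direction). Gins2 was at 9.31, 8.15, 8.71 and 7.52 in APP/PS1 and at 5.79, 5.82 and 5.84 in WT. Mcm3 was at 8.36, 7.83, 8.22 and 8.80 against 6.74, 6.78 and 6.76, and Fen1 at 6.64, 8.99, 7.56 and 7.49 against 5.60, 5.66 and 5.65. Each APP/PS1 library lay above all WT libraries, by 2.61 ± 0.38 for Gins2, 1.54 ± 0.32 for Mcm3 and 2.03 ± 0.50 for Fen1 (limma adjusted p = 4.48e-05, 0.00178 and 0.00561). Orc4 was at 8.64, 8.30, 7.86 and 8.20 against 9.31, 9.32 and 9.32 (-1.07 ± 0.25, limma adjusted p = 0.00448). Dnmt1 was at 6.77, 7.75, 7.01 and 7.99 against 8.60, 8.66 and 8.65 (-1.26 ± 0.41, limma adjusted p = 0.0363), and Slbp at 8.19, 8.17, 8.67 and 8.63 against 9.22, 9.20 and 9.28 (-0.82 ± 0.27, limma adjusted p = 0.041). Dnmt1 did not pass without any 1 of the 3 WT libraries or APP/PS1 replicate 1 or 3 (limma adjusted p = 0.0767 to 0.0936), nor with no filter on low values (0.0555), and Slbp not without any 1 of the 3 WT libraries or APP/PS1 replicate 1 or 2 (0.0809 to 0.105). The count of 8 fell to 4 without WT replicate 1 and to 5 without WT replicate 2 or 3. The WT libraries here are those whose spread the removal of surrogate variables had nearly emptied, so their own spread was not a measure of error and the error came from the other groups. Astrocyte markers were lower in APP/PS1 for 5 of 10 in this comparison.

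Whether the Ki67 difference itself depended on genotype was tested as an interaction (the Ki67 difference in APP/PS1 minus that in WT). At 4 months 0 members were called by limma (0% of all genes), with 5 at an unadjusted p under 0.05. At 6 months Mcm8 was called (2.86% of all genes, 2.33% higher and 0.537% lower), at -1.46 ± 0.40 (limma adjusted p = 0.0421), since it was higher in Ki67+ cells in WT and level in APP/PS1. It did not pass without WT Ki67+ replicate 2, WT Ki67- replicate 2, APP/PS1 Ki67- replicate 2 or APP/PS1 Ki67+ replicate 1 or 2 (limma adjusted p = 0.0743 to 0.244), nor with libraries of that age alone (0.122), and 2 members were called without WT Ki67+ replicate 1 or WT Ki67- replicate 3. Microglia markers gave 8 of 13 higher in the same interaction.

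At 12 months Gins2, Fen1, Mcm3 and Cdk2 were called (8.01% of all genes, 3.55% higher and 4.46% lower), each with a smaller Ki67 difference in APP/PS1. Gins2 was higher by 2.99 ± 0.38 in Ki67+ cells in WT, and in APP/PS1 its Ki67+ values of 8.54, 8.86, 8.67 and 8.54 lay within its Ki67- values of 9.31, 8.15, 8.71 and 7.52. The interaction was -2.76 ± 0.52 for Gins2 (95% interval -3.83 to -1.70, limma adjusted p = 0.00266) and -2.99 ± 0.68 for Fen1 (limma adjusted p = 0.00902). Fen1 in APP/PS1 was at 7.45, 8.30, 6.82 and 7.52 in Ki67+ and at 6.64, 8.99, 7.56 and 7.49 in Ki67- libraries, and in WT at 8.44, 8.40, 8.60 and 8.49 against 5.60, 5.66 and 5.65. Thus both genes were split by Ki67 state in WT and mixed in APP/PS1 at this age. Their WT Ki67- values lay below every Ki67- value of Cdc6 (6.32 to 6.67), on a scale that flattens at low levels. The size of these differences is therefore uncertain. The WT Ki67- libraries here are those from which 99.1% of the variation space had been removed, and they differed by medians of 0.024 to 0.057 per gene. Their agreement was no measure of error, and leaving out 1 near copy cannot test these calls. Mcm3 gave -1.59 ± 0.44 (limma adjusted p = 0.027), which did not pass without WT Ki67- replicate 1 or 3 (0.0526 and 0.0505). Cdk2 gave -1.48 ± 0.44 (limma adjusted p = 0.0355), which did not pass without WT Ki67+ replicate 1 or 3, WT Ki67- replicate 1, 2 or 3 or APP/PS1 Ki67- replicate 3 (0.0506 to 0.0703), and was outside the first 3 by p. Without WT Ki67- replicate 1 or 3 the count was 2 in place of 4. Both Gins2 and Fen1 share long exon stretches with other genes, as given above.

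**Figure D5:**
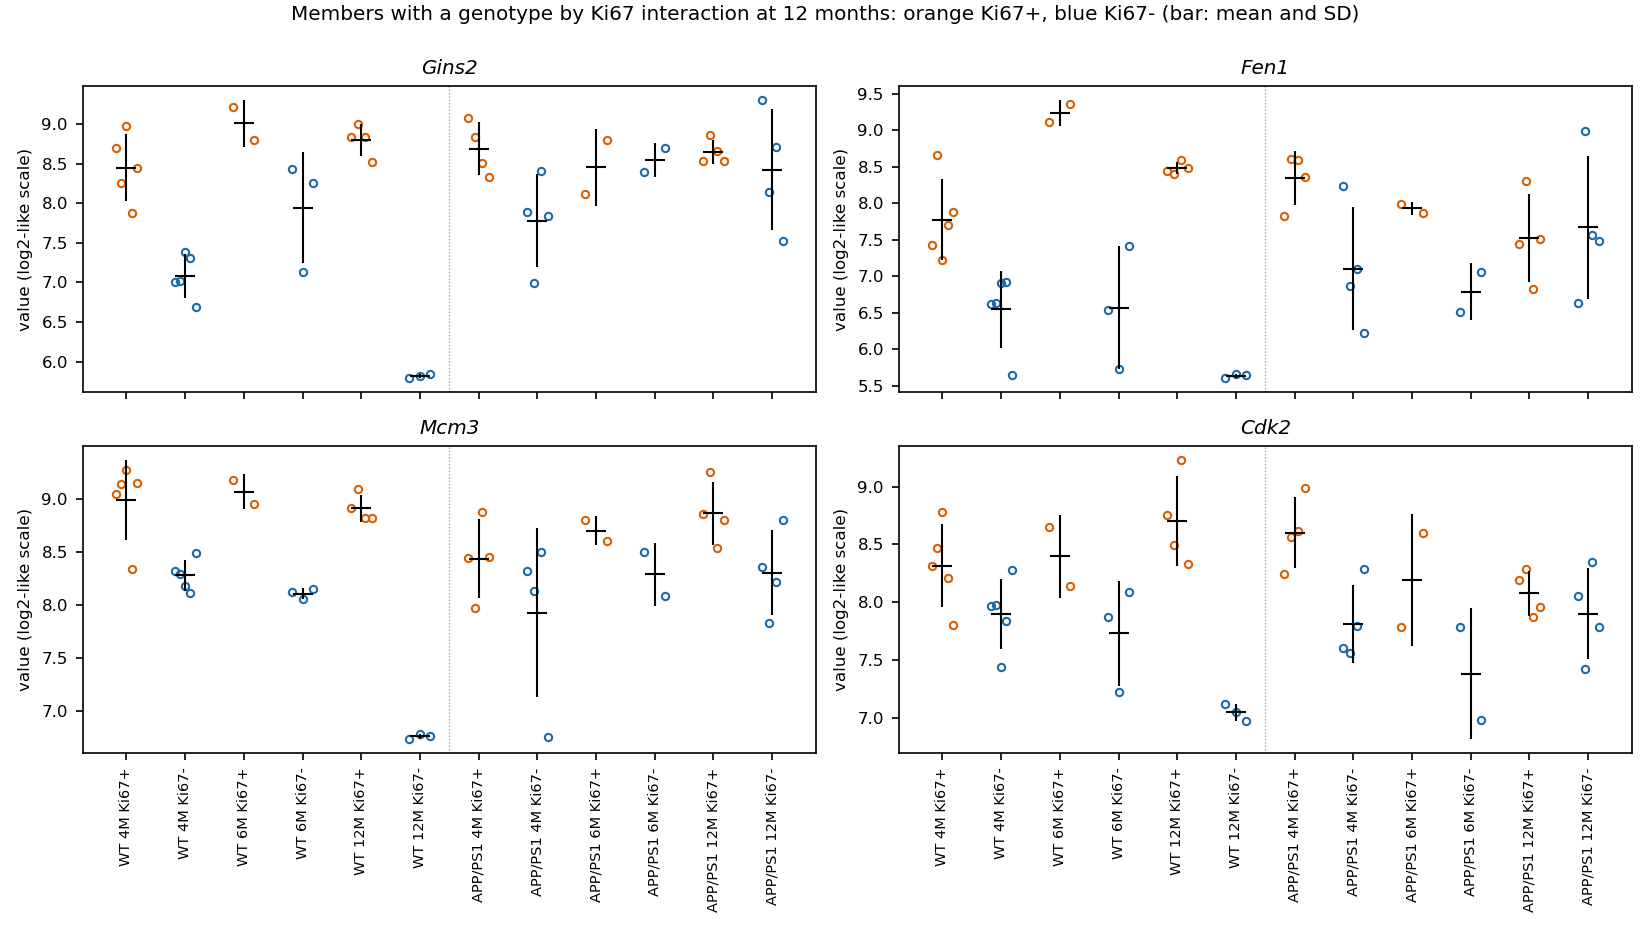
Value of Gins2, Fen1, Mcm3 and Cdk2 in each of the 42 libraries, by group on the x axis and on the deposited log2-like scale on the y axis, whose range differs between panels and does not start at 0. Circles are libraries (orange Ki67+, blue Ki67-), horizontal marks are means and bars SDs. The WT 12-month Ki67- libraries lay at 5.79 to 5.84 for Gins2 and at 5.60 to 5.66 for Fen1, with almost no spread, while the 2 states of APP/PS1 overlapped at that age.

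Ages were compared within genotype and state, always against the 4-month libraries, which the comparisons at 6 and 12 months share. In WT Ki67+ cells at 6 months, 7 members were higher and 5 lower than at 4 months (9.76% and 16.3% of all genes, 26% in either direction, whose median moved by -0.12). The median of the members was 0.06. Pold2 was at 9.83 and 10.66 against 8.38, 8.38, 9.11, 8.19 and 8.22 (1.79 ± 0.40, limma adjusted p = 0.00187). Rpa1 was at 9.81 and 9.95 against 8.38, 8.56, 9.03, 8.32 and 8.75 (1.27 ± 0.33, limma adjusted p = 0.00643), and Tyms at 8.56 and 9.26 against 6.49, 7.62, 7.51, 7.89 and 8.17 (1.37 ± 0.39, limma adjusted p = 0.0111). The 6-month libraries were above all at 4 months for these genes. Prim1 was at 6.26 and 5.36 against 7.56, 7.71, 7.38, 6.91 and 7.13 (-1.53 ± 0.35, limma adjusted p = 0.00235). Rfc3 was at 6.68 and 5.88 against 8.67, 7.60, 7.69, 7.57 and 8.03 (-1.63 ± 0.42, limma adjusted p = 0.00571), and Cdc45 at 5.04 and 4.36 against 5.95, 6.62, 5.34, 6.63 and 6.98 (-1.60 ± 0.42, limma adjusted p = 0.00616). The 6-month libraries were below all at 4 months for these. Without WT 6-month Ki67+ replicate 2 the count of 12 fell to 2, and the limma adjusted p became 0.0879 for Pold2, 0.0783 for Rpa1, 0.206 for Tyms, 0.122 for Prim1, 0.152 for Rfc3 and 0.14 for Cdc45. In the same comparison oligodendrocyte markers were higher for 7 of 9, at a mean level of 10.95 and 11.50 against 8.77 to 9.90. Microglia markers were lower for 12 of 13, astrocyte markers for 8 of 10, neuron markers for 6 of 11 and peripheral immune markers for 4 of 7, and the part of these lists was not tested.

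In WT Ki67- cells at 12 months, 6 members were lower than at 4 months and 0 higher (6.6% and 5.61% of all genes, 12.2% in either direction), namely Prim2, Mcm3, Tk1, Rfc5, Gins2 and Mcm5. Prim2 was at 7.32, 7.34 and 7.38 against 8.49, 8.53, 8.56, 8.43 and 8.66 (-1.19 ± 0.23, limma adjusted p = 0.00149). Mcm3 was at 6.74, 6.78 and 6.76 against 8.32, 8.29, 8.17, 8.11 and 8.49 (-1.52 ± 0.31, limma adjusted p = 0.00241), and Tk1 at 6.53, 6.53 and 6.52 against 8.11, 8.08, 8.04, 7.81 and 8.44 (-1.57 ± 0.35, limma adjusted p = 0.00449). No library crossed for these genes, and 3 members were called without any 1 of the 3 libraries at 12 months. Those 3 libraries had almost no spread left after the removal, so their agreement was no measure of error. Astrocyte markers were higher at 12 months for 4 of 10, and microglia markers lower for 3 and higher for 1 of 13. Between 6 and 4 months in WT Ki67- cells, and between 12 and 4 months in WT Ki67+ cells, 0 members were called by limma (0.134% and 0.993% of all genes), with 4 and 3 at an unadjusted p under 0.05.

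In APP/PS1 Ki67+ cells, Pold2 was higher and Prim2 and Mcm8 lower at 6 than at 4 months (6.47% of all genes higher and 7.11% lower, 13.6% in either direction). Pold2 was at 9.20 and 9.37 against 8.28, 7.92, 7.46 and 7.50 (1.49 ± 0.42, limma adjusted p = 0.0163), which did not pass without 6-month replicate 1 or 2 (0.0888 and 0.121). Prim2 was at 7.70 and 7.68 against 9.44, 8.79, 9.06 and 8.37 (-1.23 ± 0.27, limma adjusted p = 0.0031), and Mcm8 at 6.21 and 6.23 against 7.37, 7.14, 7.47 and 7.38 (-1.12 ± 0.25, limma adjusted p = 0.00413). Both were clear of overlap, and the count of 3 was 5 without 4-month replicate 3 and 6 without 4-month replicate 4. Oligodendrocyte markers were higher at 6 months for 8 of 9, at a mean level of 11.65 and 12.60 against 8.04 to 9.32, astrocyte markers were lower for 8 of 10, neuron markers lower for 4 and higher for 1 of 11, and mitosis genes lower for 7 of 26. Their part in these differences was not tested.

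At 12 months in the same cells, Prim2, Cdc6 and Slbp were lower than at 4 months (2.8% of all genes higher and 2.61% lower, 5.41% in either direction). Prim2 was at 7.91, 7.90, 8.05 and 7.77 against 9.44, 8.79, 9.06 and 8.37 (-1.01 ± 0.22, limma adjusted p = 0.00691). Cdc6 was at 6.44, 6.41, 6.29 and 6.24 against 6.85, 7.63, 8.68 and 6.47 (-1.06 ± 0.30, limma adjusted p = 0.0341), and Slbp at 9.40, 9.09, 9.32 and 9.05 against 10.57, 10.33, 9.69 and 9.73 (-0.87 ± 0.25, limma adjusted p = 0.0428). Cdc6 reached a mean of 7 in 1 group only, this 4-month group (7.41), so it entered the test through the group from which it is then compared, and its spread there was carried by replicates 2 and 3. Cdc6 did not pass without 4-month replicate 2 or 3 or 12-month replicate 1, 2 or 4 (limma adjusted p = 0.0527 to 0.123, with a difference of -0.64 without 4-month replicate 3), nor in a fit of APP/PS1 Ki67+ libraries alone (0.0964). Slbp did not pass without 4-month replicate 1 or 2 or 12-month replicate 1, 2 or 4 (0.0529 to 0.109), and the count of 3 was 1 without 12-month replicate 1 or 4 and 5 without 4-month replicate 4. In APP/PS1 Ki67- cells 0 members were called by limma at 6 or 12 against 4 months (0.181% and 4.11% of all genes), with 1 and 8 at an unadjusted p under 0.05, and 1 was called at 12 months without 4-month replicate 4 or 12-month replicate 3 or 4.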

How the data were processed

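RNA from up to 400 sorted, fixed cells per library was made into Nextera XT libraries, a kit that does not keep strand. Per the study's methods and processing notes, the authors converted reads with bcl2fastq 2.20, used read 1 only, quantified with kallisto 0.43.1 on GRCm38, and normalized with DESeq2 (version not given in the sources used here), with 10 surrogate variables removed. The deposited values, treated as a score, are log2-like and not counts, so no count test was used and depth is unknown.

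Group means of the 12 groups were fitted with limma 3.58.1 (R 4.3.3) over the 14910 genes whose mean reached 7 in any group (4241 others did not), and p-values were adjusted by Benjamini-Hochberg over all of them at 0.05. The 42 columns have rank 32, so 20 residual degrees of freedom were used (prior 6.94). The group part of the removed variables cannot be recovered, and the errors may be too small. The labels give each library its own number and do not say which libraries share a mouse, so p-values measure only the spread between these libraries. The Ki67 mean weighs the 6 strata equally. The script was tested on simulated data. Promoters were RefSeq windows on GRCm38.p6, and gene overlaps came from GENCODE on GRCm38. The members and all lists were chosen with earlier results of these data known.

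Values in each library were given for the 6 called members with the lowest p per direction in the Ki67 mean, the 3 per direction in each other comparison, and Pcna, Mcm2, Mcm6, Rrm2, Tyms, Ccne1, Ccne2 and E2f1. Genes named outside this rule were picked with their values in view. Alternatives were other filters, degrees of freedom, centring, moderation, subsets of libraries and leaving out each library.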

Additional observations from a re-analysis of the deposited data

Results flagged for a closer look

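In 11 of 167 gene and group pairs tested (6.59%), 1 library lay far from the rest of its group by Dixon's criterion, which chance gives in about 1 in 20 pairs. Those above their group were Ccne1 in WT 4-month Ki67+ replicate 4 (7.17, the other 4 at 6.27 to 6.40), Ccne2 in APP/PS1 12-month Ki67- replicate 3 (7.44, the other 3 at 6.42 to 6.52) and Cdc45 in replicate 1 of the same group (7.60, the others at 6.85 to 6.91). Orc4 and Rrm2 stood out in APP/PS1 12-month Ki67+ replicate 3 (8.48 against 7.82 to 7.86, and 7.33 against 6.43 to 6.47). In APP/PS1 mice at 4 months, Orc5 was high in Ki67+ replicate 1 (10.03 against 9.11 to 9.27), Rfc5 in Ki67+ replicate 3 (9.08 against 8.29 to 8.39) and Rrm1 in Ki67- replicate 4 (8.58 against 7.01 to 7.18). Pold2 was high in WT 4-month Ki67+ replicate 3 (9.11 against 8.19 to 8.38). Below their group were Pcna in WT 4-month Ki67- replicate 5 (9.08, the other 4 at 9.76 to 9.90) and Rfc3 in WT 12-month Ki67+ replicate 4 (6.91, the other 3 at 7.22 to 7.24).

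The Ki67 difference was called different between genotypes, by limma's interaction term, for Mcm8 at 6 months (-1.46) and for Mcm3 (-1.59), Gins2 (-2.76), Fen1 (-2.99) and Cdk2 (-1.48) at 12 months. The calls at 12 months use the WT Ki67- libraries with almost no spread left, as given above.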

How the results depend on the processing

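No paired analysis was possible because the labels give each library its own number. Of 159 counts of called members under other settings, 121 stayed within 1.5 times the reported count and 38 did not. Of single-member values, 590 kept direction and side of the threshold, 30 lost the call, 5 gained it and 3 changed sign. From the fits without 1 library, that tally took only those with the lowest and the highest difference of each member. Calls lost in the other such fits are therefore not in it, and are given with the comparisons above. With the removed directions not counted as spent, which adds residual degrees of freedom, the Ki67 comparison gave 8 lower in WT at 4 months, 11 lower in WT at 6 months, 20 higher and 4 lower in APP/PS1 at 4 months, 3 lower at 6 months and 7 lower at 12 months. APP/PS1 against WT then gave 2, 12 and 13 members in Ki67+ cells at 4, 6 and 12 months and 17 in Ki67- cells at 12 months, and the interaction 4 and 11 at 6 and 12 months. Age gave 2 and 3 (WT Ki67+ at 12 and WT Ki67- at 6 months), 13 (WT Ki67- at 12), 13 and 6 (APP/PS1 Ki67+ at 6 and 12) and 5 (APP/PS1 Ki67- at 12).

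With library medians subtracted, 8 members were lower in WT at 4 months and 2, 2 and 5 in APP/PS1 at 4, 6 and 12 months, APP/PS1 against WT in Ki67+ cells at 6 months gave 8, age in APP/PS1 Ki67+ cells at 12 months gave 5, and Ccne1 turned to -0.062. With libraries of that age only, where removed directions could not be counted in the same way, the Ki67 comparison gave 9 lower in WT and 19 higher and 4 lower in APP/PS1 at 4 months and 16 higher and 9 lower in APP/PS1 at 12 months, genotype at 12 months 16 in Ki67+ and 21 in Ki67- cells, and the interaction 0 at 6 and 17 at 12 months. With libraries of 1 genotype and state only, age gave 1 (WT Ki67+ at 12), 6 and 21 (WT Ki67- at 6 and 12) and 11 (APP/PS1 Ki67+ at 6). A trended, robust moderation gave 5 in APP/PS1 Ki67+ cells at 12 against 4 months. E2f1 turned to 0.098 without the 6-month libraries, and Ccne1 ran from -0.047 (without WT 6-month Ki67+ replicate 1) to 0.15 over the fits without 1 library. Pcna passed with removed directions not counted (-0.34), library medians subtracted (-0.45), an additive model (-0.36) and without the 6-month libraries (-0.47), and Tyms did not pass with no filter, with trended moderation (both -0.35) or without the WT 12-month stratum (-0.32), a setting chosen after seeing the data. Apart from the degrees of freedom, the cause was not tested.

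Leaving out 1 library at a time gave 24 to 25 higher and 11 to 15 lower over the mean of the strata. By stratum it gave 11 to 15 and 4 to 5 in WT at 4 months, 6 to 11 and 5 to 9 at 6 months, 16 to 19 and 6 to 9 at 12 months, and in APP/PS1 11 to 13 and 1 to 2, 1 to 2 and 0 to 2, and 5 to 9 and 1 to 3. Genotype gave 0 to 6 and 1 to 6 in Ki67+ cells at 6 and 12 months and 4 to 9 in Ki67- cells at 12 months, the interaction 0 to 2 and 2 to 5 at 6 and 12 months, and age 2 to 12 (WT Ki67+ at 6), 3 to 8 (WT Ki67- at 12), 2 to 6 and 1 to 5 (APP/PS1 Ki67+ at 6 and 12) and 0 to 1 (APP/PS1 Ki67- at 12). The precision is limited by groups of 2 to 5 libraries.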
